A study of Bos taurus with 18 samples.

Results

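Lysosomes are the acid compartments in which cells digest proteins, glycans and lipids, and autophagy delivers cytoplasmic material to them. A set of 37 gene symbols covering this machinery was looked up by gene name in a table of estimated gene counts from cultured bovine fibroblasts. The symbols comprise cathepsins with TPP1, glycan hydrolases, lipid-handling proteins, proton pump components, lysosomal membrane proteins, the transcription factors TFEB and TFE3, and autophagy proteins. Of these symbols, 36 had a row among the 24596 genes of the table, and 1, CTSD, matched no row by name and was not analysed here. All 36 passed the filter on low counts, which left 13099 genes for testing.

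The study followed fibroblasts of 2 cattle lines through long-term culture, and its labels give 3 stages for each line: primary, senescent and spontaneously immortalized. The Holstein-like cells are named PBF-15, Sn-BF-15 and HUN-BF-15 in stage order, and the Simmental-like cells PBF-13, Sn-BF-13 and HUN-BF-13. Each of the 6 groups has 3 libraries, 18 in all. The labels give no treatment field, but the description of the 3 Simmental-like senescent libraries reads BDF-20-MultiXray-Ctrl, which names an X-ray experiment and a control. Whether these cells were irradiated is not stated. The descriptions also carry other culture names than the cell line field: BDF-20-3B-4 for the Simmental-like primary libraries, BF-13 for the immortalized ones, BEF for the Holstein-like primary libraries and BF-15 for the later Holstein-like stages. The design text has the primary cells of each cow carried on in culture until immortalization, and how the differing names relate to that is not given in the sources used here. Comparisons with the immortalized Simmental-like cells therefore set BF-13 libraries against BDF-20 libraries. They call the 3 libraries of a group biological replicates without saying that these came from separate cultures or animals. The p-values therefore measure the spread between libraries, which may be technical. Stage, culture name and any difference between source cultures cannot be told apart.

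Lysosomal hydrolases are made as precursors, sorted through the Golgi, many of them on mannose 6-phosphate receptors, and work at the low pH set by the vacuolar proton pump. Heavily glycosylated membrane proteins such as LAMP1 and LAMP2 line the organelle. TFEB and TFE3 are related transcription factors that enter the nucleus when the kinase complex mTORC1 is inactive and activate many lysosomal and autophagy genes. Autophagosomes carry lipid-linked proteins of the LC3 and GABARAP families, to which receptors such as SQSTM1 (p62) bring cargo. In fibroblasts, the β-galactosidase staining used as a senescence marker comes from the lysosomal enzyme encoded by GLB1, and a larger lysosomal compartment is a known trait of senescent cells.

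Total counts ran from 18.2 to 23.2 M (units of 1e+06 counts) in Simmental-like, from 1.42 to 1.47 M in Holstein-like primary, and from 11 to 14.1 M in the remaining Holstein-like libraries. All 12 fibroblast markers were detected in every Simmental-like library, at a summed 42300 to 67700 CPM (counts scaled to 1e+06 per library). Most of the Holstein-like libraries went against their label. Skeletal muscle markers summed to 182000 to 184000 CPM in the 3 primary libraries. Liver markers summed to 152000 to 159000 CPM in senescent libraries 2 and 3 and immortalized library 1. Heart markers reached 22400 CPM in Holstein-like senescent library 1 and kidney markers 10400 CPM in immortalized library 2. Immortalized library 3 was the exception, with fibroblast markers at 67400 CPM, but it also had 4270 CPM of macrophage and blood cell markers. For this reason all 9 Holstein-like libraries are given singly and enter no test. Simmental-like senescent libraries 1 and 2 were close to replicate counts of 1 library, with a chi-square per gene of 1.34 against 3.36 to 353 for the other Simmental-like pairs, and 1.03 over the lysosome and autophagy genes.

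Levels below are CPM scaled by the trimmed mean of M-values (TMM) over the 9 Simmental-like libraries, unless the sentence says that they were scaled by column total. Changes are log2 changes ± SE from edgeR's quasi-likelihood test with 3 libraries a stage, and a gene is said to rise or fall where its Benjamini-Hochberg adjusted p over all 13099 genes is under 0.05. The choice of scaling matters most for senescent against primary cells: with total-count scaling the median gene shifted by 0.47 on the log2 scale there, by -0.16 for immortalized against senescent, and by 0.30 for immortalized against primary. With TMM scaling these medians were 0.01, -0.00 and -0.00.

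**Figure D1:**
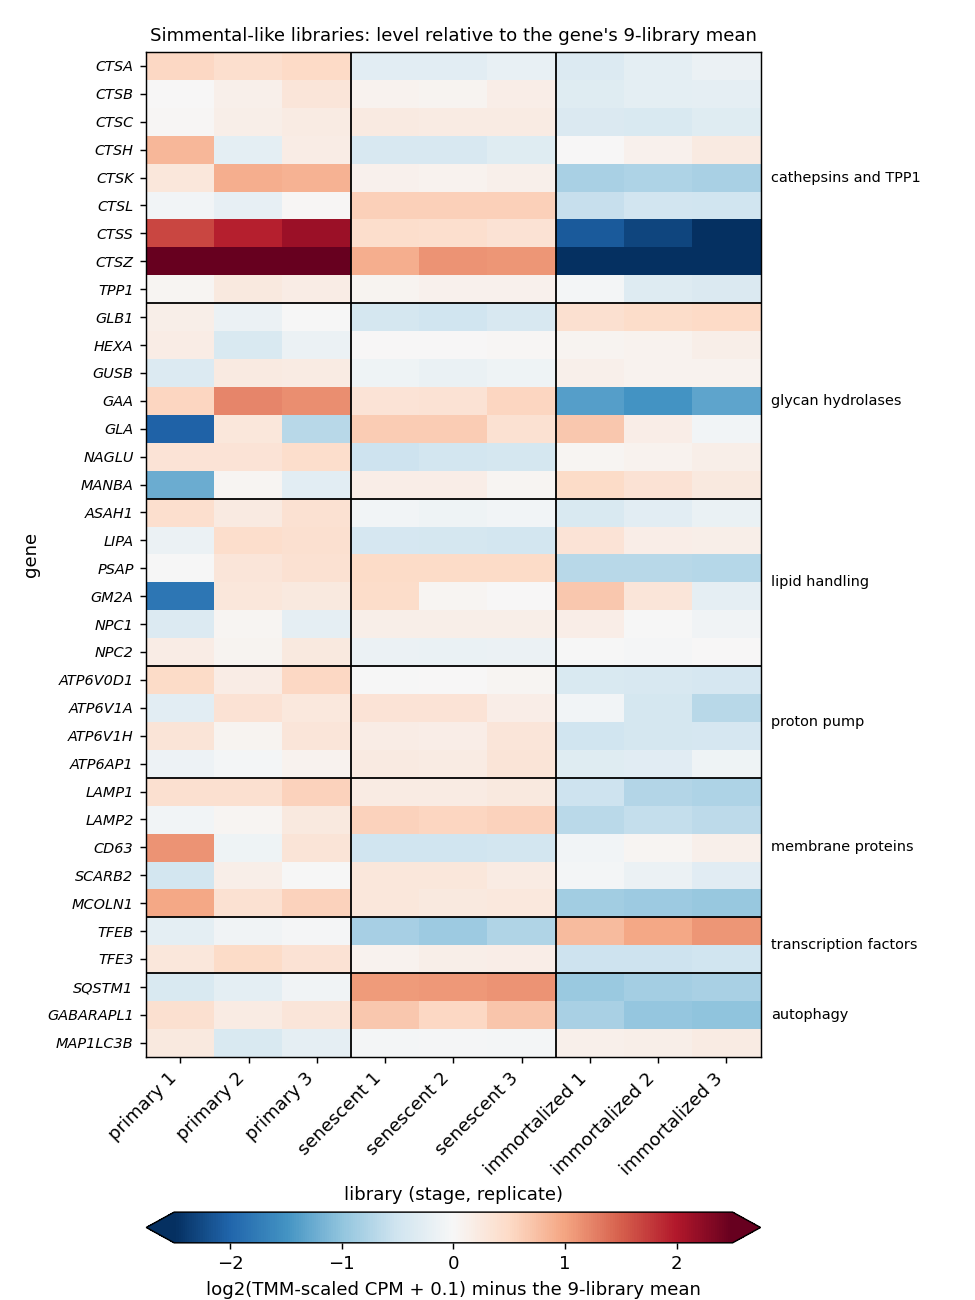
Level of each of the 36 lysosome and autophagy genes (rows, grouped by role) in each of the 9 Simmental-like libraries (columns), as log2(TMM-scaled CPM + 0.1) minus the gene's mean over the 9 libraries. CTSZ and CTSS run from high in primary to low in immortalized libraries (the colour scale ends before the CTSZ values do), SQSTM1 is highest in the senescent libraries, and GLA, GM2A and MANBA are low in primary library 1.

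Senescent cells carried more mRNA than primary cells of the autophagy receptor SQSTM1, the protease CTSL, the membrane protein LAMP2, the autophagosome protein GABARAPL1 and the pump accessory subunit ATP6AP1. They carried less of 16 others, led by CTSZ, CTSS and CD63. Of the 36 genes, 5 rose and 16 fell, so that 58.3% passed the test against 58% of all genes tested. The share that rose was 13.9% against 28.3% of all genes, and the share that fell was 44.4% against 29.7%. Changes of a log2 unit or more were called for 1 gene that rose and 3 that fell, against 17.4% and 13.7% of all genes and 31.1% in either direction. The median change was -0.12, and the 3 libraries of each stage did not overlap for 27 of the 36 genes (75%, against 66.6% of all genes). With total-count scaling 15 rose and 3 fell (all genes: 45.5% and 14%), and the median was 0.33, still under the shift of the median gene. In that scaling CTSZ, CTSS and NAGLU were the genes that fell. With genes above 5 CPM in 3 libraries alone, 6 rose and 15 fell, against 27.7% and 30.3% of those genes.

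Among the 36 genes, immortalized cells carried less mRNA than senescent cells of most of the proteases, pump genes, membrane proteins and autophagy genes. The falls were led by CTSZ, CTSS and SQSTM1. In these groups CTSA, CTSH, TPP1, CD63, SCARB2 and MAP1LC3B did not pass. Of the 36 genes, 18 fell and 4 rose, which is 61.1% past the test against 32.4% of all genes. Total-count scaling gave 20 that fell and 3 that rose, against 20.6% and 11.5% of all genes. The share that fell was 50% against 16.1% of all genes, and 9 fell by a log2 change of 1 or more, against 8.54% of all genes, while 1 rose by as much, against 5.89%. The genes that rose were TFEB, GLB1, LIPA and NAGLU. The median change was -0.39, and the libraries of the stages did not overlap for 32 genes (88.9%, against 70.9% of all genes). When only genes above 5 CPM in 3 libraries were kept, 19 fell and 4 rose, and 30.9% of 10595 genes passed.

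Immortalized against primary cells gave 20 genes that fell and 3 that rose, TFEB, GLB1 and MANBA. That is 63.9% past the test against 50.4% of all genes, with 55.6% falling against 25.5%. The median change was -0.46, and the stages did not overlap for 24 genes (66.7%, against 56.4% of all genes). With total-count scaling 14 fell and 6 rose, against 16% and 35% of all genes. With genes above 5 CPM in 3 libraries alone, 20 fell and 3 rose, and 49.2% of those genes passed in either direction. The 3 comparisons share their libraries pairwise, so they are not independent of each other.

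**Figure D2:**
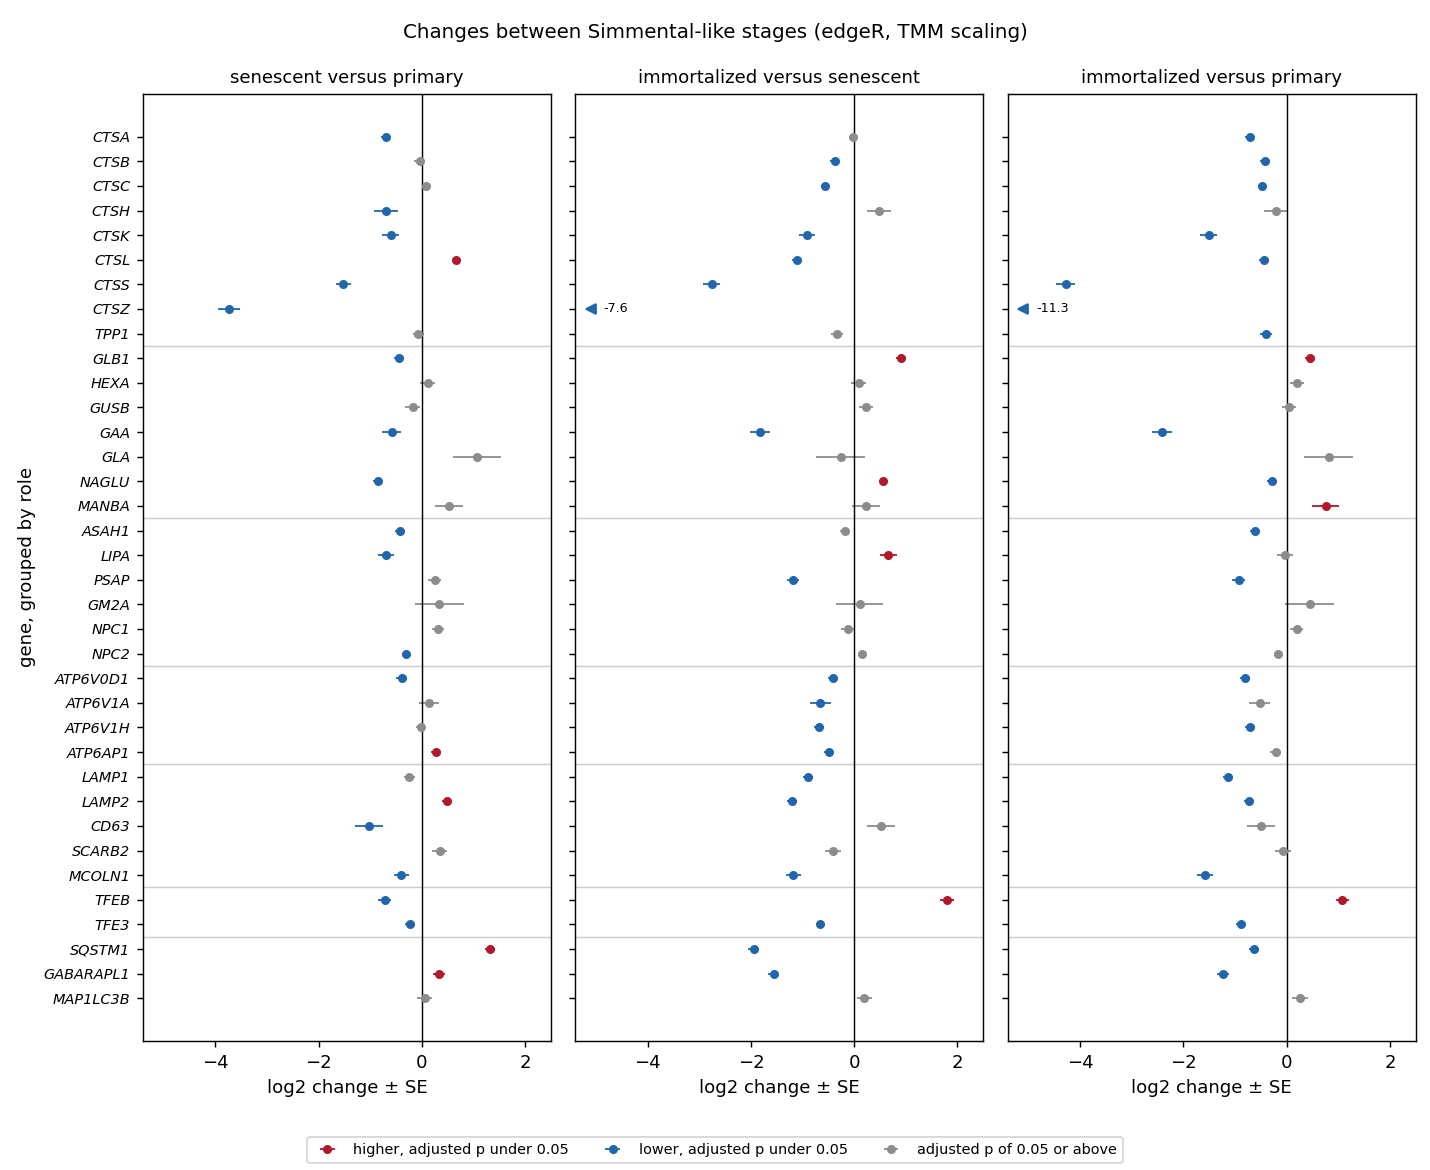
Log2 change ± SE of each gene (rows, grouped by role) in the 3 Simmental-like comparisons (panels), from edgeR with TMM scaling and 3 libraries a stage; colours mark the genes past an adjusted p of 0.05. The 2 arrows are CTSZ values off the scale, -7.6 and -11.3; in the middle panel 18 genes lie to the left in blue and 4 to the right in red. With total-count scaling the sign changes for CTSB, TPP1, GLB1, GUSB, ASAH1, NPC2, ATP6V0D1, ATP6V1H, LAMP1, MCOLN1 and TFE3 in the left panel, for HEXA, GM2A and NPC2 in the middle one, and for CTSH, NAGLU, LIPA, NPC2, ATP6AP1 and SCARB2 in the right one.

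Among the cathepsins with TPP1, 5 of 9 genes fell and 1 rose in senescence, 6 fell at immortalization, and 8 of 9 were lower in immortalized than in primary cells. The shares that fell were 55.6%, 66.7% and 88.9%, against 29.7%, 16.1% and 25.5% of all genes. The share that rose in senescence was 11.1% against 28.3%. CTSZ, which encodes the carboxypeptidase cathepsin Z (also called cathepsin X), had levels of 401, 244 and 302 CPM in the primary libraries. The senescent libraries had 21.6, 24.9 and 24.7 CPM, and the immortalized libraries 0.0531, 0.144 and 0.147 CPM, which stand on 1, 3 and 3 counts. The stages do not overlap anywhere, and the immortalized level is at the limit of what these depths can count. The change was -3.73 ± 0.21 in senescence (adjusted p = 3.33e-06) and -7.60 ± 0.32 at immortalization (adjusted p = 2.96e-06). Summed counts went from 15921 to 1620 to 7. By column total the primary to immortalized ratio was 2130, with an exact 95% interval of 1040 to 5310 for counting error only. The ratio of the TMM-scaled means was 2750. In a bulk library, fewer cells of a type and less RNA per cell cannot be told apart.

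CTSS encodes cathepsin S, an elastin-cleaving protease best known from antigen-presenting cells. Its levels were 57.9, 70 and 79.8 CPM in primary, 24.7, 24.4 and 23.3 CPM in senescent, and 4.14, 3.59 and 2.95 CPM in immortalized libraries. Every library of a later stage lay below every library of the earlier one. CTSS fell by 1.52 on the log2 scale in senescence (SE 0.15, adjusted p = 8.82e-05) and by 2.76 at immortalization (SE 0.17, adjusted p = 1.42e-05).

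The summed level of the 13 markers, scaled by column total, was 82.2 to 93.6 CPM in primary, 13.7 to 16.1 CPM in senescent and 7.19 to 8.96 CPM in immortalized libraries. Most of the primary sum came from LAPTM5 (63.9 to 76.2 CPM), itself a lysosomal membrane protein, and CD14 (13.4 to 15.5 CPM). These 2 genes ran in the order of CTSZ and CTSS. CSF1R and CD163, markers of macrophages, ran the other way: CSF1R was at 0.148 to 0.218 CPM in primary, 1.06 to 1.6 CPM in senescent and 1.15 to 1.67 CPM in immortalized libraries, and CD163 at 0.494 to 1.25, 3.76 to 4.26 and 4.45 to 4.91 CPM. TYROBP had no count in any of the 9 libraries, PTPRC (CD45) was at most 0.22 CPM and SPI1 at most 0.309 CPM. The part of such cells in the cathepsin changes was not tested.

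CTSK encodes cathepsin K, a collagen-cleaving protease of osteoclasts that fibroblasts also make. It had 1300, 2010 and 1960 CPM in primary, 1150, 1140 and 1170 CPM in senescent, and 609, 623 and 609 CPM in immortalized libraries. The stages do not overlap, although primary library 1 stands closer to the senescent libraries than to the other primary ones. CTSK fell by 0.60 in senescence (SE 0.16, adjusted p = 0.0118; with total-count scaling -0.16, adjusted p = 0.534) and by 0.91 at immortalization (SE 0.16, adjusted p = 0.00299). The summed osteoclast markers, by column total, were at 16.7 to 35.8 CPM in primary, 42 to 43.3 CPM in senescent and 20.9 to 21.3 CPM in immortalized libraries, carried by NFATC1 and, in senescent cells, MMP9. ACP5, the acid phosphatase of osteoclasts, was at 3.75 to 5.98, 1.4 to 1.96 and 2.03 to 2.68 CPM, and like CTSK it fell in senescence (-2.12, adjusted p = 0.000377) and was lower in immortalized than in primary cells (-1.45, adjusted p = 0.0023). CALCR, the calcitonin receptor gene of the same list, ran the other way. It was at 0 CPM in all primary, 0.0484 to 0.309 CPM in senescent and 1.98 to 2.53 CPM in immortalized libraries. DCSTAMP had no count in the 9 libraries. The part of such cells in the CTSK change was not tested.

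CTSL, which encodes the endopeptidase cathepsin L, took another course. Its levels were 104, 93.6 and 111 CPM in primary, 163, 164 and 165 CPM in senescent, and 73.2, 77.8 and 77 CPM in immortalized libraries. The senescent libraries were the highest and the immortalized ones the lowest, with no overlap. CTSL rose by 0.67 ± 0.091 in senescence (adjusted p = 0.000414) and fell by 1.11 at immortalization (SE 0.092, adjusted p = 5.64e-05).

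CTSA, the carboxypeptidase that also shields GLB1 protein from degradation, fell from 181 ± 5.8 CPM (SD, n = 3) in primary to 111 ± 3.6 CPM in senescent cells (-0.70, adjusted p = 0.000261; with total-count scaling -0.23, adjusted p = 0.085) and was at 110 ± 8 CPM in immortalized cells. CTSB, an abundant cysteine protease, and CTSC, which activates granule serine proteases, fell at immortalization by 0.37 and 0.57. CTSB passed the test there with an adjusted p of 0.021, and without any 1 of the senescent or immortalized libraries its adjusted p was 0.0624 to 0.0858. CTSH, an aminopeptidase, fell in senescence by 0.69 (adjusted p = 0.0317; with total-count scaling -0.18, adjusted p = 0.374; without primary library 3 or any 1 senescent library, 0.0512 to 0.0856), with primary library 1 at 371 CPM against 177 and 238 CPM in the others. TPP1, a tripeptidyl peptidase, fell in immortalized against primary cells, by 0.40 (adjusted p = 0.0176; 0.0772 without immortalized library 2, 0.0647 without library 3, and 0.586 with total-count scaling); at immortalization it was at -0.33 (adjusted p = 0.0534), and passed without primary library 1 (0.00867), primary library 2 (0.0394) or immortalized library 1 (0.0263).

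**Figure D3:**
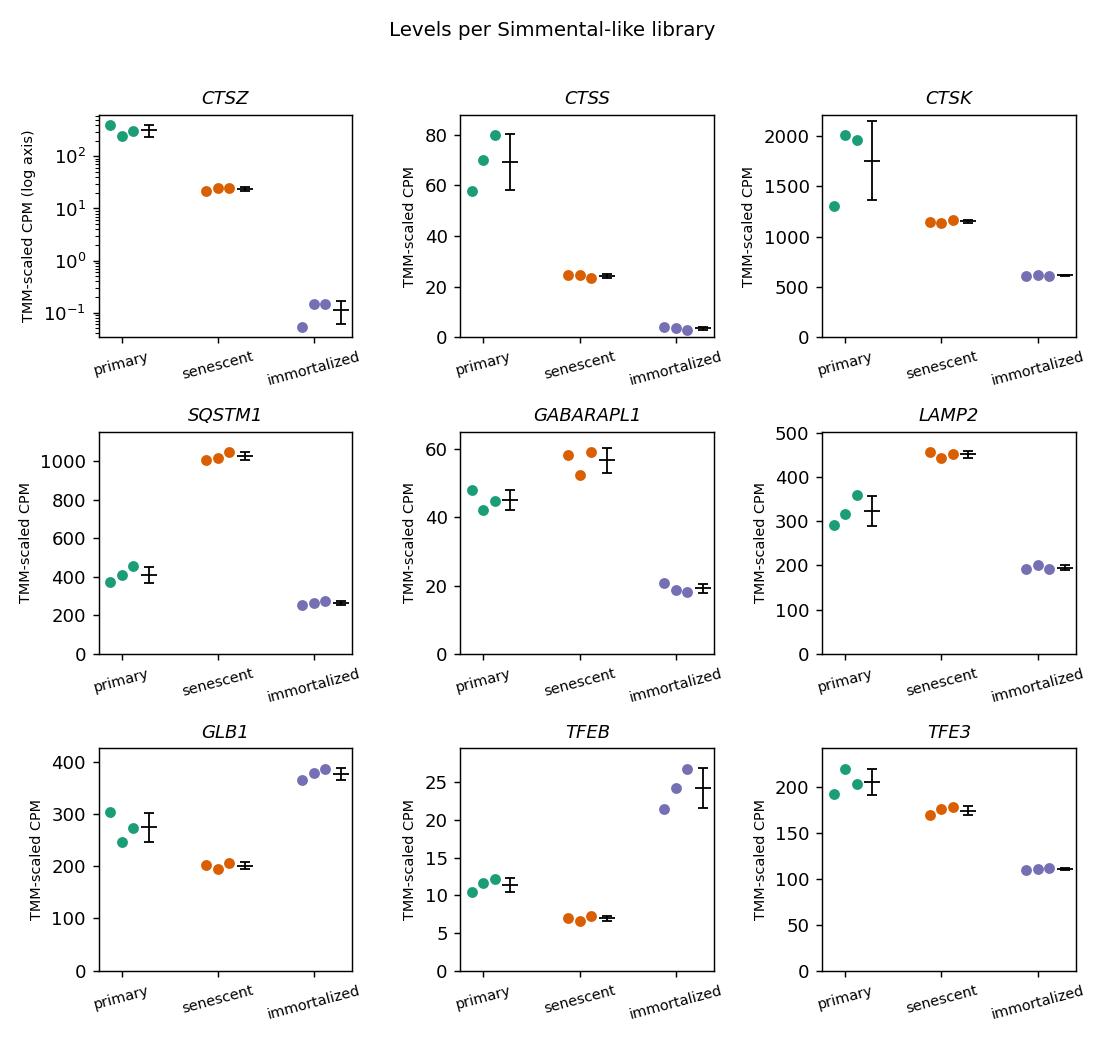
TMM-scaled CPM of 9 genes in each Simmental-like library (points, by stage), with the mean and SD of 3 libraries beside them; the CTSZ axis is a log axis and the others start at 0. SQSTM1 stands at 1010 to 1050 CPM in senescent libraries against 255 to 456 CPM in the others, while GLB1 and TFEB are lowest in senescent and highest in immortalized libraries; with total-count scaling GLB1 no longer differs between primary and senescent.

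Of the glycan hydrolases, 3 of 7 fell and none rose in senescence by edgeR, where HEXA, GUSB, GLA and MANBA did not pass, and at immortalization 2 rose and 1 fell. In senescence 42.9% passed, all lower, against 58% of all genes in either direction and 29.7% lower. At immortalization 28.6% rose and 14.3% fell, against 16.4% and 16.1%. GLB1, the lysosomal β-galactosidase, had 303, 247 and 273 CPM in primary, 202, 195 and 207 CPM in senescent, and 365, 379 and 387 CPM in immortalized libraries. The senescent libraries were the lowest of the 9 in this scaling, so the transcript of the enzyme behind the senescence stain was not raised at that stage. GLB1 fell by 0.45 in senescence (SE 0.095, adjusted p = 0.00438), which total-count scaling turned to 0.033 with no call (adjusted p = 0.742), and rose by 0.91 ± 0.096 at immortalization (adjusted p = 0.000205).

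GAA, the acid glucosidase that digests glycogen, had 22.7, 36.7 and 34.9 CPM in primary, 19.9, 20.2 and 22.8 CPM in senescent, and 5.95, 5.51 and 6.24 CPM in immortalized libraries. Immortalized libraries lay below all the others, while primary library 1 fell within the senescent range. GAA fell by 1.83 at immortalization (SE 0.19, adjusted p = 0.000207). Its fall in senescence (-0.59, adjusted p = 0.0228) was not past the test without primary library 3, senescent library 1 or senescent library 2 (adjusted p = 0.0743 to 0.0775), nor with total-count scaling (-0.15, adjusted p = 0.61).

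NAGLU, which trims heparan sulfate, fell from 63 ± 2.4 to 34.8 ± 1.1 CPM in senescence (-0.86, adjusted p = 9.36e-05) and rose to 51.6 ± 1.9 CPM in immortalized cells (0.57, adjusted p = 0.00155). HEXA and GUSB, a hexosaminidase subunit and the β-glucuronidase, passed in no comparison of all 9 libraries. Without primary library 1, HEXA passed in senescence (0.27, adjusted p = 0.0142) and against primary (0.35, adjusted p = 0.00447), and GUSB in senescence (-0.35, adjusted p = 0.00059) and at immortalization (0.22, adjusted p = 0.00566). GLA, the α-galactosidase, spread most of all in primary cells, with 8.78, 43.5 and 22.1 CPM and a coefficient of variation of 70.7%. Its change in senescence was 1.07 ± 0.47 (adjusted p = 0.0812), and 1.76 without primary library 2 (adjusted p = 0.00422). MANBA, a β-mannosidase, was higher in immortalized than in primary cells by 0.75 ± 0.27 (adjusted p = 0.0475), a call that 7 of the 9 fits leaving out 1 library lost.

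Of the lipid-handling genes, PSAP encodes the precursor of the saposins, small activators of sphingolipid enzymes. It had 1390, 1740 and 1830 CPM in primary, 1950, 1960 and 1970 CPM in senescent, and 866, 875 and 861 CPM in immortalized libraries. The senescent libraries lay above all primary ones, but the change of 0.25 ± 0.12 did not pass (adjusted p = 0.1). With total-count scaling it was 0.70 (adjusted p = 0.00768). PSAP fell by 1.18 at immortalization (SE 0.12, adjusted p = 0.000159).

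LIPA, the acid lipase for cholesteryl esters and triglycerides, went from 47.1 ± 10 CPM in primary to 29.1 ± 0.43 CPM in senescent (-0.70, adjusted p = 0.00594) and 46 ± 3.3 CPM in immortalized cells (0.66, adjusted p = 0.0126). With total-count scaling neither change passed (adjusted p = 0.331 and 0.113). ASAH1, the acid ceramidase, fell by 0.42 in senescence (adjusted p = 0.00592), and NPC2, the soluble cholesterol carrier, by 0.31 (adjusted p = 0.0104); both signs turned with total-count scaling, to 0.053 and 0.16. NPC1, the membrane cholesterol transporter that works with NPC2, passed in no comparison of all 9 libraries, with 0.32 ± 0.12 in senescence (adjusted p = 0.0513). Without primary library 2 it passed in senescence (0.43, adjusted p = 0.00644) and against primary (0.31, adjusted p = 0.0304). GM2A, the ganglioside activator, was at 0.545 to 3.5 CPM in all 9 libraries and passed nowhere.

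All 4 proton pump genes fell at immortalization (100%, against 16.1% of all genes). They were ATP6V1H (-0.68 ± 0.1), ATP6V1A (-0.66 ± 0.2) and ATP6V0D1 (-0.42 ± 0.1), which encode subunits of the pump, and ATP6AP1 (-0.49 ± 0.098), which encodes an accessory protein. Their summed level was 541, 538 and 550 CPM in senescent and 393, 372 and 371 CPM in immortalized libraries, and for each of the 4 the stages did not overlap. ATP6V1H and ATP6AP1 kept this call in each fit that left out 1 library. ATP6V1A (adjusted p = 0.0377) lost it in 6 of those 9 fits, with adjusted p values of 0.0567 to 0.13. ATP6V0D1 (adjusted p = 0.0145) lost it in 4, at 0.0514 to 0.0595. In senescence the group was split, with ATP6AP1 higher by 0.27 (adjusted p = 0.0401) and ATP6V0D1 lower by 0.39 (adjusted p = 0.0114; 0.084 higher with total-count scaling). The ATP6AP1 call was lost in 7 of the 9 fits that left out 1 library, where its adjusted p was 0.0529 to 0.136.

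The membrane proteins LAMP1 and LAMP2 are the main glycoproteins of the lysosomal membrane, and LAMP2 also serves in autophagosome fusion and chaperone-mediated autophagy. LAMP2 had 292, 316 and 359 CPM in primary, 457, 443 and 453 CPM in senescent, and 192, 201 and 193 CPM in immortalized libraries. LAMP1 had 517, 517 and 583 CPM in primary, 451, 452 and 467 CPM in senescent, and 273, 236 and 229 CPM in immortalized libraries. LAMP2 thus peaked in senescent cells without overlap, while LAMP1 was highest in primary cells. LAMP2 rose by 0.49 ± 0.096 in senescence (adjusted p = 0.00291) and fell by 1.21 at immortalization (SE 0.097, adjusted p = 4.85e-05). LAMP1 changed by -0.24 ± 0.1 in senescence without passing (adjusted p = 0.0684; 0.0194 without primary library 1 and 0.0479 without primary library 2; with total-count scaling the value was 0.23), and fell by 0.89 at immortalization (SE 0.1, adjusted p = 0.000292).

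MCOLN1 encodes mucolipin 1, a calcium channel of the lysosomal membrane. Its levels were 69.3, 46.5 and 53.1 CPM in primary, 43.4, 42.1 and 42.9 CPM in senescent, and 19.5, 18.8 and 18.3 CPM in immortalized libraries. The immortalized libraries were the lowest by a wide margin, whereas primary library 2 came near the senescent ones. MCOLN1 fell by 1.18 at immortalization (SE 0.15, adjusted p = 0.000477). Its fall of 0.39 in senescence (adjusted p = 0.0424) was lost in 7 of the 9 fits that left out 1 library, at adjusted p values of 0.058 to 0.111, and turned to 0.096 with total-count scaling.

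CD63, a tetraspanin of late endosomes and exosomes, had 2050, 877 and 1180 CPM in primary, 670, 668 and 681 CPM in senescent, and 900, 972 and 1030 CPM in immortalized libraries. Primary library 1 was 1.99 times the mean of the other primary libraries, and the senescent libraries were the lowest of the 9. CD63 fell by 1.02 in senescence (SE 0.27, adjusted p = 0.0116; with total-count scaling -0.51, adjusted p = 0.0558). Its change at immortalization was 0.52 ± 0.27 (adjusted p = 0.171), and 0.51 without primary library 1, which then passed (adjusted p = 0.00252). SCARB2, the receptor that carries glucocerebrosidase to lysosomes, passed in no comparison of all 9 libraries, with 385 ± 80, 489 ± 15 and 367 ± 30 CPM in stage order. At immortalization it passed without primary library 1 (-0.42, adjusted p = 0.00159) or primary library 2 (-0.41, adjusted p = 0.0306). It also passed in senescence without primary library 2 (0.47, adjusted p = 0.0174) and against primary without primary library 1 (-0.24, adjusted p = 0.0359).

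The transcription factors TFEB and TFE3 went opposite ways at immortalization. TFEB had 10.4, 11.6 and 12.2 CPM in primary, 6.94, 6.53 and 7.3 CPM in senescent, and 21.5, 24.2 and 26.8 CPM in immortalized libraries. TFE3 had 192, 220 and 203 CPM in primary, 169, 176 and 178 CPM in senescent, and 110, 111 and 112 CPM in immortalized libraries. The immortalized libraries were the highest of the 9 for TFEB and the lowest for TFE3, with no overlap between any stages in either gene. TFEB rose by 1.80 ± 0.13 at immortalization (adjusted p = 3.1e-05), a 3.49-fold difference of means, and TFE3 fell by 0.66 (SE 0.083, adjusted p = 0.000531). In senescence TFEB fell by 0.72 (SE 0.13, adjusted p = 0.002; with total-count scaling -0.26, adjusted p = 0.202). The TFE3 fall of 0.24 in senescence (adjusted p = 0.0373) was lost in 8 of the 9 fits that left out 1 library and turned to 0.23 with total-count scaling. TFEB mRNA was thus highest at the stage where 18 of the 36 genes were lower than in senescent cells. Whether either protein was in the nucleus was not measured.

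SQSTM1 encodes p62, the receptor that links ubiquitinated cargo to autophagosomes and is itself degraded by autophagy. Its levels were 372, 408 and 456 CPM in primary, 1010, 1020 and 1050 CPM in senescent, and 255, 266 and 276 CPM in immortalized libraries. The lowest senescent library stood far above the highest of the others. SQSTM1 rose by 1.32 ± 0.1 in senescence (adjusted p = 1.78e-05), 2.49-fold, and fell by 1.95 at immortalization (SE 0.1, adjusted p = 6.5e-06). Both calls held in all 21 alternative fits.

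GABARAPL1 encodes an LC3-like protein of autophagosome membranes. Its levels were 48, 42.2 and 44.8 CPM in primary, 58.4, 52.4 and 59.2 CPM in senescent, and 20.8, 18.6 and 18.2 CPM in immortalized libraries. The order of stages was that of SQSTM1, without overlap. GABARAPL1 rose by 0.33 ± 0.11 in senescence (adjusted p = 0.0247; 0.0616 without primary library 3, 0.0867 without senescent library 1 and 0.0879 without senescent library 3) and fell by 1.56 at immortalization (SE 0.11, adjusted p = 2.32e-05).

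MAP1LC3B, the LC3 gene most used as an autophagy marker, had 125, 81.7 and 91.4 CPM in primary, 103, 104 and 103 CPM in senescent, and 116, 117 and 123 CPM in immortalized libraries. Primary library 1 was the highest of the 9 and primary library 2 the lowest, so the primary range enclosed both other stages. No comparison passed, with changes of 0.06, 0.20 and 0.26 (adjusted p = 0.758, 0.344 and 0.182). Without primary library 1 the changes were 0.25, 0.19 and 0.44, and all 3 passed (adjusted p = 0.0105, 0.024 and 0.000486).

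Spread within a stage was widest in primary cells, as for genes at large. The median coefficient of variation over the 36 genes was 13.3% in primary, 2.41% in senescent and 6.45% in immortalized libraries, against 27.4%, 5.08% and 9.01% over all genes tested. Primary library 1 differed by more than 1.5 times from the mean of the other 2 primary libraries for 8 of the 36 genes, 2 higher and 6 lower (22.2%, against 50.7% of all genes). GM2A was 4.76 times, GLA 3.74 times and MANBA 2.22 times lower there. Leaving that library out gave 7 genes that rose and 18 that fell in senescence, where the share over all genes in that fit is not given here. At immortalization it gave 8 and 21. Of the fits that left out 1 library, this one also gave the most calls over all genes at immortalization, with the counts given below. The shares of 16.4% rising and 16.1% falling over all genes at that step are from the fit of all 9 libraries. The calls at immortalization thus grew in number over all genes as well, and the size of the gains was not compared.

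Summed over the 36 genes, counts by column total made up 0.744%, 0.922% and 0.951% of the primary, 1.09%, 1.09% and 1.11% of the senescent, and 0.67%, 0.679% and 0.677% of the immortalized libraries. The senescent libraries were the highest in this measure. With TMM scaling the means were 10410 ± 420, 9480 ± 97 and 6522 ± 40 CPM, so the order of primary and senescent cells flips with the scaling, while the immortalized cells were the lowest in both. The autophagy genes alone summed to 556 ± 32, 1186 ± 21 and 403 ± 13 CPM, and the cathepsins with TPP1 to 3482 ± 310, 2421 ± 47 and 1624 ± 35 CPM.

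Other genes of the same pathways, from 12 lists of 167 symbols, gave 153 rows and 149 tested genes. Of these, 33 rose and 44 fell in senescence (51.7% past the test), 20 rose and 29 fell at immortalization (32.9%), and 28 rose and 57 fell between primary and immortalized cells (57%). The shares over all genes were 58%, 32.4% and 50.4%. By direction, 22.1% rose and 29.5% fell in senescence (all genes 28.3% and 29.7%), 13.4% and 19.5% at immortalization (16.4% and 16.1%), and 18.8% and 38.3% between primary and immortalized cells (24.9% and 25.5%). With total-count scaling the calls were 67 up and 21 down in senescence, 11 and 37 at immortalization, and 39 and 30 between primary and immortalized cells. The lists were chosen with earlier results of these data known.

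Among the other proteases and their inhibitors, the legumain gene LGMN, which processes cathepsins, fell by 1.24 in senescence (adjusted p = 4.34e-05) and rose by 0.79 at immortalization (adjusted p = 0.00084). The cystatins block cysteine cathepsins. CST6 fell by 3.16 at immortalization (adjusted p = 0.000782) and CST3 by 1.32 in senescence (adjusted p = 0.00401). The 3 cystatins tested were all lower in immortalized than in primary cells (100%, against 25.5% of all genes). For CSTB that call held in 9 of 21 alternative fits. With total-count scaling 2 of the 3 were called lower, against 16% of all genes.

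The remaining LC3 family genes did not follow GABARAPL1. GABARAP fell by 1.64 in senescence (adjusted p = 0.0036), MAP1LC3A by 1.1 (adjusted p = 0.0187; 0.0831 with total-count scaling), and MAP1LC3C rose at each step, by 1.30 (adjusted p = 0.0172) and 2.40 (adjusted p = 0.0003), from 0.31 to 0.734 to 3.88 CPM. Of the 14 other proton pump genes, 2 fell and 1 rose at immortalization (14.3% and 7.14%, against 16.1% and 16.4% of all genes). These were ATP6V0B at -0.91 (adjusted p = 0.000422), ATP6V1B2 at -0.62 (adjusted p = 0.000466) and ATP6V1D at 0.55 (adjusted p = 0.00301). The 4 pump genes described above, all lower, therefore do not stand for the whole pump.

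In the list of TFEB-related factors and their upstream control, 9 of 18 genes rose and 4 fell in senescence, and 8 fell and 1 rose at immortalization. These are 50% and 22.2% in senescence, against 28.3% and 29.7% of all genes, and 44.4% and 5.56% at immortalization, against 16.1% and 16.4%. With total-count scaling 13 rose and 4 fell in senescence (all genes 45.5% and 14%), and 9 fell and 1 rose at immortalization (20.6% and 11.5%). The folliculin partners FNIP2 and FNIP1, which act on the nutrient signal to TFEB and TFE3, rose by 2.61 and 1.74 in senescence (adjusted p = 0.00107 and 0.00377) and fell by 1.78 and 1.49 at immortalization (adjusted p = 0.01 and 0.0126). PRKAA2, a catalytic subunit of the energy sensor AMPK, had 0 counts in primary, 38 in senescent and 5 in immortalized libraries. With the primary group set to its floor of 3 counts in all, the senescent level by column total was at least 13.3-fold higher. The TMM factors, 0.725 to 0.915 in primary and 1.16 in senescent libraries, would lower this bound. MITF, a further member of the family, did not pass in senescence (0.47 ± 0.53, adjusted p = 0.463).

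Among channels and membrane proteins, LAPTM5, a lysosomal protein of blood cells, fell by 6.19 in senescence (adjusted p = 5e-07). Its summed counts were 4236, 77 and 2 in stage order, the same order of stages as CTSZ. By column total the primary to immortalized ratio was 1990 (exact 95% interval 550 to 16400, counting error only). CLCN7, the lysosomal chloride-proton exchanger, fell by 0.88 at immortalization (adjusted p = 0.000178). Of the enzyme-sorting genes, SORT1, a sorting receptor, fell by 1.52 there (adjusted p = 0.00873).

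The Holstein-like libraries, taken singly and by column total, held the 36 genes at 0.241% to 0.255% of counts in the 3 primary libraries, and at 0.326%, 0.548% and 0.526% in the senescent ones. The immortalized libraries had 0.658%, 0.925% and 1.59%. In the primary libraries, where muscle markers dominate, 27 or 28 of the 36 genes lay below all 9 Simmental-like libraries (75% to 77.8%, against 63.7% to 63.8% of all genes) and 1 above (2.78%, against 10.8% to 11%). Of the senescent libraries, the first had 25 of the 36 genes below that range, the second 18 and the last 20, against 51%, 50.9% and 49.1% of all genes. Immortalized library 1 had 18 below, against 54%, and 9 above, against 13.7%. Immortalized library 2 had 14 below and 14 above, against 31.6% and 27.7%. Organ transcripts and stage cannot be told apart in these libraries, and no stage comparison was made.

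Immortalized library 3 was the one with fibroblast markers at 67400 CPM, and it also had 4270 CPM of macrophage and blood cell markers, with all 13 genes detected, and 5510 CPM of endothelial markers. There 19 of the 36 genes lay above all Simmental-like libraries (52.8%, against 25.5% of all genes) and 4 below (11.1%, against 30.9%). LIPA was at 816 CPM, 15.9 times the highest Simmental-like library, and GM2A at 77.9 CPM, 21.5 times. CTSS was at 578, CTSB at 2270 and CTSC at 812 CPM. TYROBP, without a count in the Simmental-like libraries, was at 21.1 CPM and PTPRC at 150 CPM. The part of these markers in the levels was not tested.

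By column total, GABARAPL1 was above all Simmental-like libraries in 9 of 9 Holstein-like libraries, at 69.5 to 894 CPM against 18.7 to 68.5 CPM. The lowest of these, in primary library 3, is just outside the Simmental-like range, and the highest was immortalized library 2, where kidney markers were found. In the same measure GLB1, CD63 and TFE3 were below the Simmental-like range in 9 of 9. SQSTM1 lay within it in all 9, at 331 to 567 CPM. TMM factors over all 18 libraries were 0.594 to 0.597 in Holstein-like primary and 1.49 to 1.5 in Simmental-like senescent libraries. With that scaling SQSTM1 lay above the range in the primary Holstein-like libraries, and CD63 within it in immortalized library 3. The share of all genes placed alike in all 9 was not counted. CTSZ, nearly absent from immortalized Simmental-like cells, was at 325, 458 and 513 CPM in the immortalized Holstein-like libraries, above the Simmental-like primary maximum of 291 CPM. TFEB was at 4.03 to 27.5 CPM with no order by stage.

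**Figure D4:**
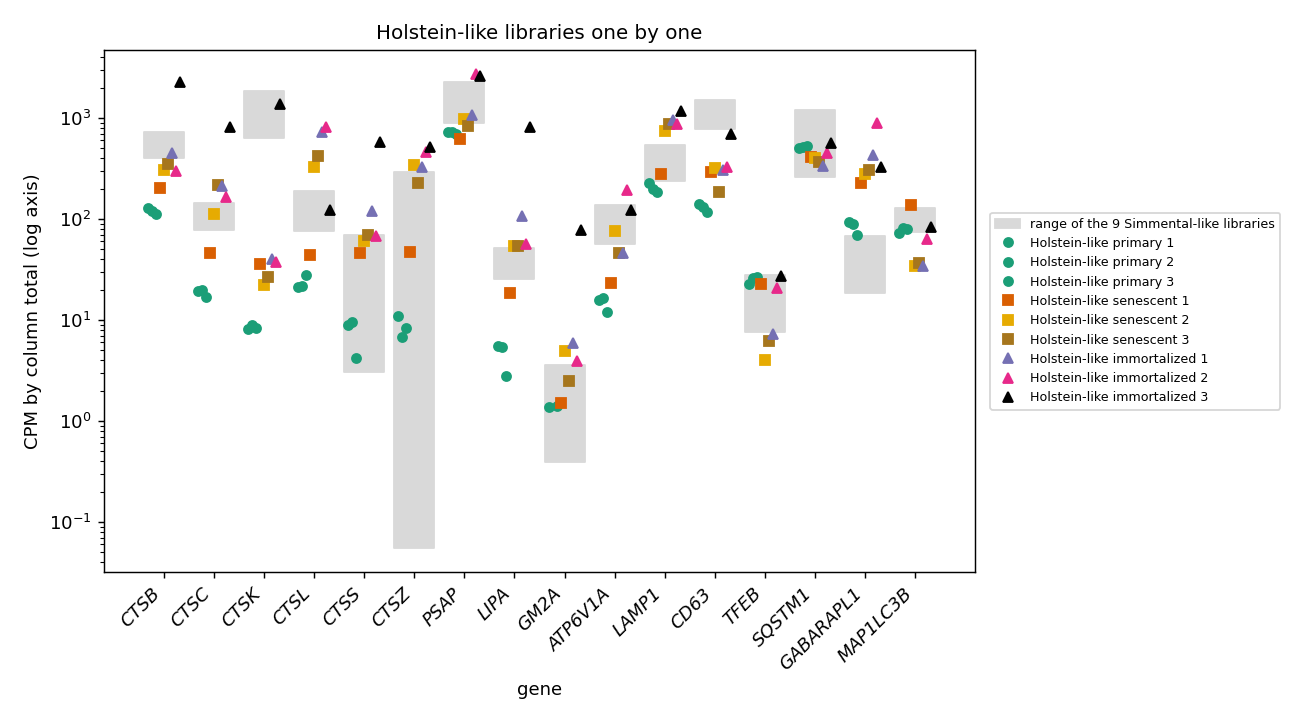
CPM by column total (log axis) of 16 genes in each of the 9 Holstein-like libraries (points), with the range of the 9 Simmental-like libraries as grey bars; the value of 0 for GM2A in primary library 2 cannot be drawn. Immortalized library 3 (black triangles) stands far above the bars for LIPA, GM2A, CTSS and CTSC, and all 9 points for GABARAPL1 lie above its bar.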

How the data were processed

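Total RNA of 18 libraries (RNeasy mini kit, NEBNext Ultra II RNA kit, NextSeq single reads, per the labels) had been quantified before deposit. The deposited table holds salmon's estimated counts per gene merged over libraries, per its file name. The build was UMD3.1, per the submitters' processing notes. For salmon's version, the annotation and the strand setting: not given in the sources used here. The estimated counts were rounded to whole numbers and tested with edgeR 4.0.16 in R 4.3.3 (filterByExpr, TMM, robust quasi-likelihood, 9 Simmental-like libraries, 3 stages, adjusted p under 0.05), tested on simulated data. DESeq2 1.42.0, limma 3.58.1 (voom), other scalings, filters and samples were alternatives. Values in every library are given for genes past the test by a log2 change of 1 or more, and for TFEB, TFE3, LAMP1, GLB1, SQSTM1, MAP1LC3B and GABARAPL1; of each wider list up to 3 genes with the largest changes were eligible. Members and lists were chosen with earlier results of these data known. A promoter search was not run. No transcript lengths were used here, so genes are not ranked by level.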

Additional observations from a re-analysis of the deposited data

How the results depend on the processing

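Of 2265 values (108 gene results under up to 21 alternatives), 2019 kept their side of the threshold. Of these 2019, 36 took the other sign with no call in the main test or the alternative, and the rest kept their direction. A further 165 lost and 72 gained a call. The remaining 9 reversed, meaning that the sign changed and the main test or the alternative gave a call. Every call was kept for CTSZ and SQSTM1 in senescence, for CTSZ, CTSS, MCOLN1, SQSTM1 and GABARAPL1 at immortalization, and for CTSZ, CTSS, GAA, MCOLN1 and GABARAPL1 between immortalized and primary cells. Counts were few for GM2A at every stage (105, 170 and 159 summed counts in stage order) and for CTSZ in immortalized cells (7 counts). The cause of a change was not tested.

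Total-count scaling reversed, for senescent against primary, CTSB (0.416), GLB1 (0.0326), ASAH1 (0.0533), NPC2 (0.159), ATP6V0D1 (0.0843), ATP6V1H (0.454), MCOLN1 (0.0961), TFE3 (0.225), ATG101 (0.0454), ATG7 (0.0961), ATP6V0B (0.339), ATP6V1D (0.138), CLCN7 (0.400), HYAL2 (0.128) and SMPD1 (0.037), and NAGLU between immortalized and primary (0.0152).

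Fits below whose counts over all genes are not given show only how the counts depend on the setting. In senescence, 15 lysosome and autophagy genes rose and 3 fell with total-count scaling, 8 rose with DESeq2, 3 rose with senescent libraries 1 and 2 summed, 9 fell in the fit of 6 libraries, and 1 rose and 1 fell in the fit of all 18. The wider pathway gave 67 up and 21 down with total counts, 21 up with 6 libraries, 7 up and 14 down with 18, and 19 up with the summed libraries. All genes gave 5955 up and 1840 down with total counts, and 1156 and 869 with 18 libraries. Leaving out 1 library gave 3 to 8 up among the 36 genes and 18 to 43 in the wider pathway.

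At immortalization, 10 of the 36 rose with 6 libraries, 0 rose and 5 fell with 18. The wider pathway gave 11 up with total counts, 37 up and 64 down with 6 libraries, 2 up and 4 down with 18, and 13 up with the summed libraries. All genes gave 4212 up and 4388 down with 6 libraries, and 143 and 273 with 18. Leaving out 1 library gave 3 to 8 up among the 36, 12 to 32 up and 18 to 55 down in the wider pathway, and 1406 to 3814 up and 1432 to 3979 down over all genes, with the highest values without primary library 1.

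Between immortalized and primary cells, 6 of the 36 rose with total counts, and 0 rose and 5 fell with 18 libraries. The wider pathway gave 30 down with total counts, and 5 up and 16 down with 18. All genes gave 2098 down with total counts, and 942 up and 858 down with 18. Leaving out 1 library gave 2 to 5 up among the 36.

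Summed CPM of the 36 genes was 10410, 9480 and 6522 with TMM in stage order, and 10060, 11950 and 7569 without the 10 most abundant genes. In the Holstein-like libraries, in order, it was 4267, 4270, 4045, 4419, 7382, 6585, 9661, 6838 and 12500 with TMM over 18 libraries, and 3772, 3757, 3573, 4627, 7114, 7020, 8751, 11280 and 18200 without the 10 most abundant genes.

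With the replicate number as a block, 5 of the 36 rose and 13 fell in senescence, 4 and 17 at immortalization, and 2 and 19 between immortalized and primary cells. The shares over all genes in that fit are not given here, so these counts are not read against all genes. Same-numbered libraries deviated together in some pairs and apart in others (correlations of -0.634 to 0.407). Differently numbered pairs ranged from -0.693 to 0.704. These correlations thus gave no sign of pairing by number, but with 3 libraries a stage they cannot exclude it.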

Other observations

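Genes next to CTSZ in the RefSeq order of the ARS-UCD2.0 assembly, which is not the build of the counts, shared its course in part. NELFCD, GNAS and NPEPL1 on one side fell in senescence, by 0.96, 1.06 and 1.38 on the log2 scale (edgeR, adjusted p = 9.49e-05, 0.00338 and 4.36e-05), and changed by 0.16, 0.09 and -0.05 at immortalization (adjusted p = 0.245, 0.766 and 0.778), where CTSZ changed by -7.60. On the other side TUBB1 rose by 1.76 and then fell by 2.07 (adjusted p = 0.00137 and 0.00106). Beyond it, PHACTR3 changed by -0.33 at each step without passing (adjusted p = 0.167 and 0.228). SYCP2 rose by 4.03 (adjusted p = 0.00174) and then changed by 0.57 (adjusted p = 0.293).

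CTSK and CTSS are neighbours in that order, and both fell at each step, but by different amounts, -0.60 and -1.52 in senescence and -0.91 and -2.76 at immortalization. HORMAD1, beyond CTSS, rose by 3.07 and fell by 2.62 (adjusted p = 0.000246 and 0.000617), and ARNT, beyond CTSK, changed by 0.00 and -0.61 without passing (adjusted p = 0.992 and 0.0706). Next to GLB1, CNOT10 and CRTAP rose at immortalization by 0.58 and 0.97 (adjusted p = 0.0032 and 0.00983), as GLB1 did (0.91).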
